A study of Mus musculus with 20 samples.

Results

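The interferon-stimulated genes examined here are 33 named genes, among 30142 measured in mouse bladder and metastasis, that cells switch on when an interferon binds its receptor. The rule names well-known members of the response and sets no limit on measured values. All 33 were measured, and for Irf1, the member with more than 1 row on the array, the row with the highest mean was used. By role they comprise 4 sensors of foreign nucleic acid, 8 signalling factors and regulators, 15 effectors and 6 GTPases.

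The 20 samples came from FVB/N mice whose genotype, shared by all groups and by the controls, includes floxed Rb and the absence of p107. The groups were a treated metastasis (n = 1), metastasis (n = 4), treated bladder (n = 3), bladder tumor (n = 7) and control bladder (n = 5). Mice of the bladder tumor and treated bladder groups had received, in the bladder, an adenovirus that carries Cre recombinase, the enzyme that cuts out floxed segments, whereas the control bladders are labelled as bladder alone, and the metastases are described as coming from such mice. Treated mice were given CM272, which inhibits the histone methyltransferase G9a and DNA methyltransferases, intraperitoneally at 5 mg/kg each day over 30 days, and cisplatin, a drug that crosslinks DNA, at 6 mg/kg once a week. No group had either drug by itself, so the 2 agents cannot be told apart, and the cell type that the virus entered, the organ of each metastasis and the ages of the mice are not stated in the labels. RNA was extracted with a kit for fixed, paraffin-embedded tissue. The labels do not state that each sample came from a separate animal, so p-values below rest on the spread among samples, part of which may be technical.

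Interferons signal through kinases bound to their receptors. Type I and type III interferons activate a complex that holds STAT2 and IRF9 and binds a DNA motif called the interferon-stimulated response element (ISRE), while type II interferon acts mainly through a motif called the gamma-activated site (GAS). The induced proteins detect viral RNA and DNA, degrade RNA, block translation and trafficking, and feed back on the pathway. In tumors this program is read as a sign of interferon from infiltrating immune cells or from the tumor cells themselves, and in cultured tumor cells inhibitors of DNA methylation are known to switch it on through transcripts of endogenous retroviruses. The treated groups here had CM272 together with cisplatin, and no transcripts of endogenous retroviruses were examined. They therefore show the level of the program after both drugs and cannot test that route.

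The promoters of 6 members are shown because they carry the ISRE core as tandem, spaced or single matches in genes described below. Each line gives the 160 bases before the annotated transcript start, 5′ to 3′ on the gene's strand, from RefSeq on the build GRCm38.p6, with matches of the ISRE core (GAAANNGAAA, on either strand) in capitals.
Oas1a chr5:120907526-120907685 (minus strand): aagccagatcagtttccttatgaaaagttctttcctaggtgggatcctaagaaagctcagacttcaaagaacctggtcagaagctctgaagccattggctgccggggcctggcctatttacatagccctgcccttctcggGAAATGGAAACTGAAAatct
Isg15 chr4:156200819-156200978 (minus strand): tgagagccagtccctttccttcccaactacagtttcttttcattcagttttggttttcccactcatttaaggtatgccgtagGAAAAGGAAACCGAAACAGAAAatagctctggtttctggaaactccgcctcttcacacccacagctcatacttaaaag
Ifit1 chr19:34640729-34640888 (plus strand): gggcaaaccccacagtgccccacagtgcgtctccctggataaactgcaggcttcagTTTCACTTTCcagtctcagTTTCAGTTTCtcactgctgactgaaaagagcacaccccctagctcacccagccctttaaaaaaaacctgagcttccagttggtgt
Ifit3 chr19:34583369-34583528 (plus strand): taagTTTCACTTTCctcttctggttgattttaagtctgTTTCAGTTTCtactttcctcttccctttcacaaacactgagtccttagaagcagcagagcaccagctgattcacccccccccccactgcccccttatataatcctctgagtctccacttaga
Irgm1 chr11:48871421-48871580 (minus strand): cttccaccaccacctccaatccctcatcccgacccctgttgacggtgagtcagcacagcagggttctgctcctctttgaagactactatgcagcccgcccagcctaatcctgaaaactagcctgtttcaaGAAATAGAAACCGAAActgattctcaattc
Igtp chr11:58199396-58199555 (plus strand): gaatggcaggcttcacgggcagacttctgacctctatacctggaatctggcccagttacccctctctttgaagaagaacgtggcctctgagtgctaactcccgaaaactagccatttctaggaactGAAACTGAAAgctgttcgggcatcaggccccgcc
In Oas1a, Isg15 and Irgm1 the capitals are runs of matches that overlap one another, 2 in Oas1a, 3 in Isg15 and 2 in Irgm1. In Ifit1 and Ifit3 there are 2 separate matches, which read as the reverse complement because the core lies on the other strand. Igtp has 1 match, at positions -34 to -25 from the start.

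Of the 33 members, 24 had a window in the RefSeq promoter table, which runs from 250 bases before the start to 50 after it. The ISRE core was found in 14 of the 24 (58.3%), against 3.99% of the 27025 genes with a window (3.44% of 32851 windows). The looser GAS pattern (TTCNNNGAA, which reads the same on both strands and can overlap an ISRE match, as in Bst2) was found in 6 of the 24 (25.0%), against 9.55% of genes (8.3% of windows). Those 6 are Oas1a, Bst2, Igtp, Irf1, Ifi35 and Ifit2. By role, the ISRE core was present in the windows of the sensors Ddx58 and Ifih1, the signalling factor Stat2, 7 effectors (Isg15, Ifit1, Ifit3, Oas1a, Oas3, Rsad2, Bst2) and 4 GTPases (Gbp2, Gbp3, Irgm1, Igtp). These are matches of letters and not measured binding sites.

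**Figure D1:**
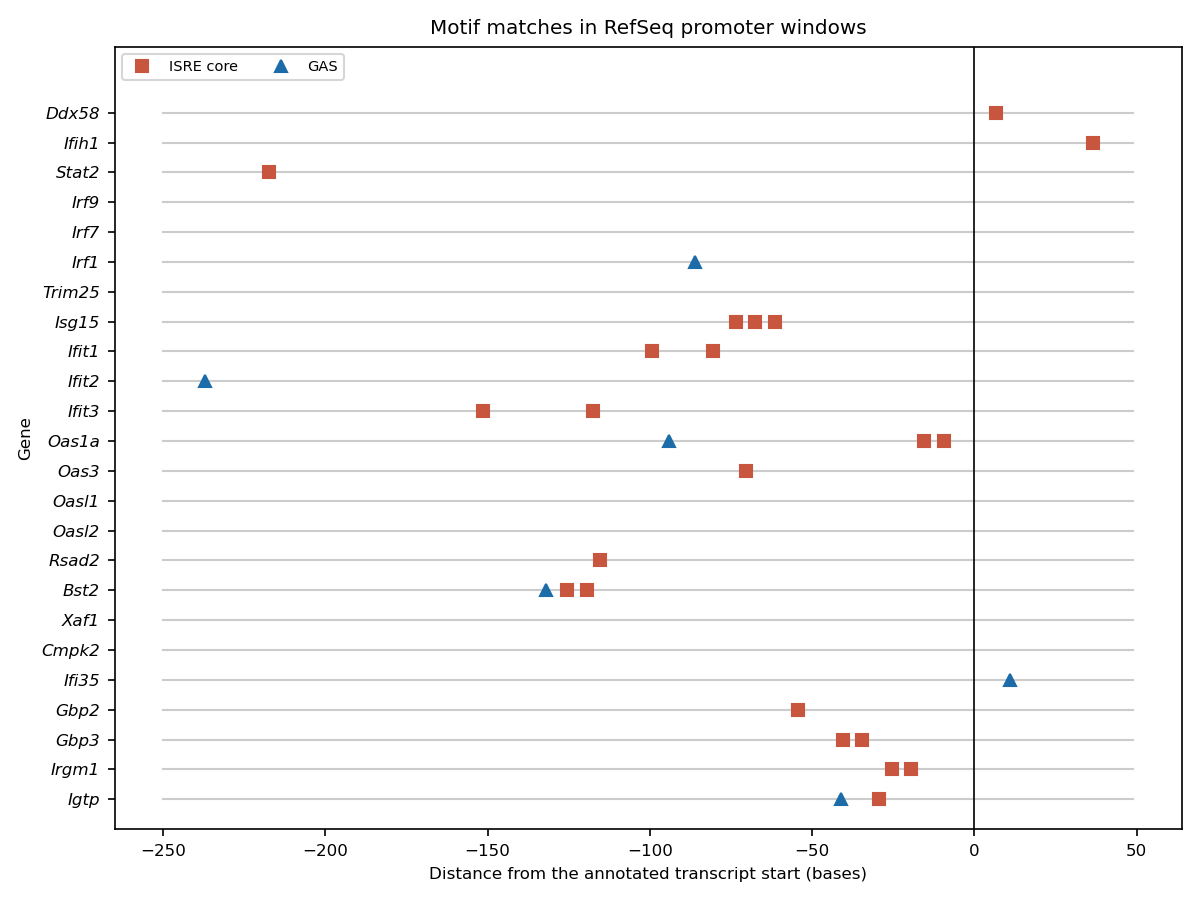
Positions of ISRE core matches (squares) and GAS matches (triangles) in the promoter windows of the 24 members that have one, by distance from the annotated transcript start in bases. The ISRE core matches run from position -222 (Stat2) to position 41 (Ifih1).

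Values are log2 as the submitters describe them, on which a difference of 1 is 2-fold, although a few rows that hold no member exceed what that scale allows. In 8 arrays (metastasis 3 and 4, bladder tumor 3, 4 and 5, control bladder 4, 5 and 6) the genes' deviations from their means over all arrays correlated at most at r = 0.072 to 0.139 with those of any other array. The best such correlation was 0.328 to 0.609 in the remaining 12, which hold every treated sample, and the 8 are called near-mean arrays below. Control bladders 1 and 2 read 10.76 and 10.88 for Xist, the RNA of the inactive X chromosome in females, and the other 18 arrays read 4.47 to 6.44. Without the near-mean arrays the control group is these 2 samples, so there sex and group cannot be told apart. The near-mean arrays could not be told apart by tissue in the markers: all 8, whatever their label, read 6.90 to 7.10 for the mean of 9 urothelium markers and 6.78 to 7.06 for that of 6 smooth muscle markers. The other 12 ran from 5.23 to 10.23 and from 5.28 to 10.54, with 9.35 and 9.30 for smooth muscle in control bladders 1 and 2. The labels do not say whether the 8 were processed in another way. They were kept in the comparisons as the replicates their labels name, and results are also given without them. Markers of urothelium, the lining of the bladder, had a mean log2 value of 5.23 on the treated metastasis, 5.33 to 6.98 in metastasis, 7.12 to 8.22 in treated bladder, 5.57 to 10.23 in bladder tumor and 6.90 to 8.76 in control bladder. Tumor 6, the array at 5.57, is thus labelled bladder but reads near the low end of the metastases for these markers.

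The level of the interferon-stimulated genes was taken by group and then by array. The mean log2 value of the 33 members was 5.92 on the treated metastasis, 5.78 ± 0.22 in metastasis, 5.79 ± 0.39 in treated bladder, 5.87 ± 0.27 in bladder tumor and 5.74 ± 0.10 in control bladder (SD; n = 1, 4, 3, 7 and 5). For any set of genes, single arrays span at least as much as the means of their groups, so the spans are not compared. The arrays here spanned 0.92. The highest were at 6.43 in tumor 6, 6.23 in treated bladder 2 and 6.08 in metastasis 1. The lowest were at 5.51 in treated bladder 1, 5.56 in tumor 7 and 5.56 in metastasis 2. High and low arrays thus occurred within metastasis, treated bladder and bladder tumor, while the controls ran from 5.60 to 5.85, and the ranges of the 4 replicated groups overlapped. In bulk tissue, more RNA per cell and more cells that carry it cannot be told apart.

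In tumor 6, 31 of the 33 members stood above their own mean over the 20 arrays, as they did in treated bladder 2, and in metastasis 1 it was 28. Over all genes the same share was 37.7% in tumor 6, 41.5% in treated bladder 2 and 38.9% in metastasis 1. The lower end was as uniform: 1 of 33 members stood above its mean in treated bladder 1 and 1 in tumor 7, with 5 in metastasis 2, 5 in treated bladder 3 and 5 in control bladder 2. Over all genes the share on these arrays was 53.4%, 46.7%, 46.4%, 55.2% and 44.7%, in that order. Tumor 6 was the highest of the 7 tumors for 24 members (72.7%), against 18.2% of all genes. Treated bladder 2 was the highest of its 3 for 30 members (90.9%), against 32.6% of all genes, and metastasis 1 the highest of its 4 for 23 members (69.7%), against 24.4%. The same 3 arrays were highest, in the same order, after a further quantile normalization and after each array was centred on its median. Among the controls, control bladder 6 was highest of the 5 for 15 members (45.5%), against 30.5% of all genes.

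**Figure D2:**
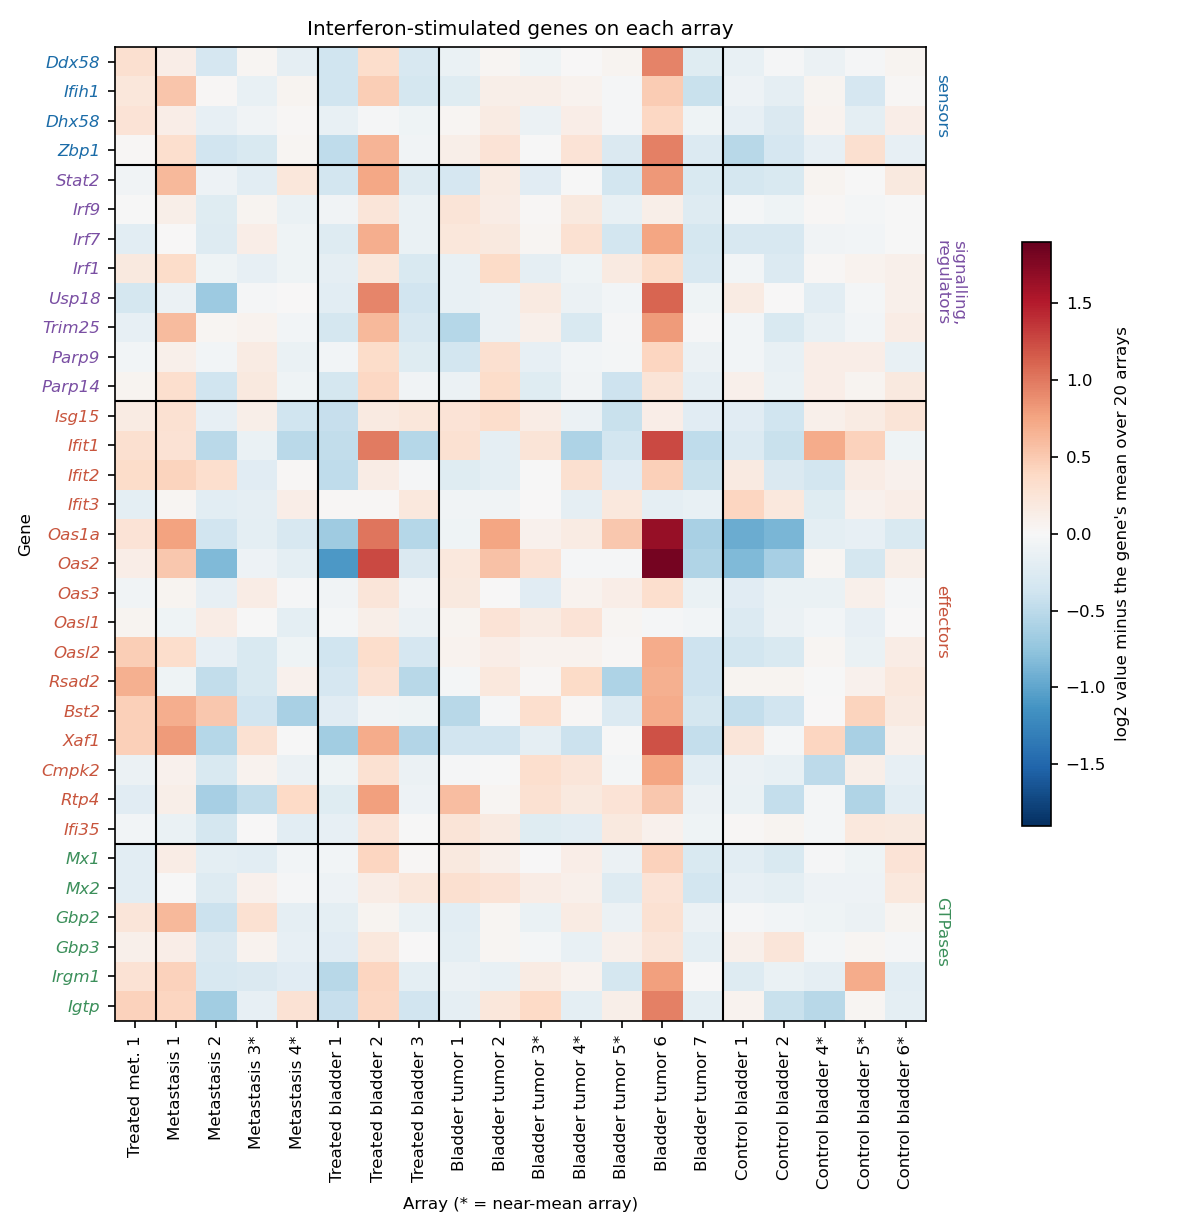
The log2 value of each member minus its mean over the 20 arrays, with members as rows grouped by role and arrays as columns grouped by sample type (asterisks mark near-mean arrays). Tumor 6, treated bladder 2 and metastasis 1 form red columns that cross all 4 roles, while treated bladder 1, tumor 7 and metastasis 2 form blue ones.

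The sensors start antiviral signalling when they meet foreign nucleic acid. As a class their mean was 6.06 on the treated metastasis, 5.84 ± 0.21 in metastasis, 5.80 ± 0.37 in treated bladder, 5.94 ± 0.30 in bladder tumor and 5.76 ± 0.11 in control bladder. Zbp1, a receptor for Z-form nucleic acid that can trigger necroptosis, read 5.89 on the treated metastasis, 6.19, 5.51, 5.59 and 5.91 on metastases 1, 2, 3 and 4, and 5.39, 6.52 and 5.81 in treated bladders 1, 2 and 3. Zbp1 values of the 7 bladder tumors ran from 5.60 (tumor 5) through a median of 5.98 to 6.83 (tumor 6), and control bladders 1, 2, 4, 5 and 6 gave 5.35, 5.56, 5.72, 6.18 and 5.72. Zbp1 averaged 5.80 ± 0.32 in metastasis, 5.91 ± 0.57 in treated bladder, 6.02 ± 0.42 in bladder tumor and 5.71 ± 0.31 in control bladder. The highest arrays were tumor 6, treated bladder 2 and metastasis 1, and all groups overlapped. Ddx58, which codes for the RNA sensor RIG-I, read 6.24 on the treated metastasis, 6.06, 5.61, 5.98 and 5.77 on metastases 1, 2, 3 and 4, and 5.56, 6.27 and 5.63 in treated bladders 1, 2 and 3. Ddx58 values of the 7 bladder tumors ran from 5.71 (tumor 7) through a median of 5.95 to 6.88 (tumor 6), and control bladders 1, 2, 4, 5 and 6 gave 5.79, 5.91, 5.83, 5.92 and 5.99. Ddx58 averaged 5.85 ± 0.20 in metastasis, 5.82 ± 0.39 in treated bladder, 6.02 ± 0.39 in bladder tumor and 5.89 ± 0.08 in control bladder. Tumor 6 stood alone here, with tumor 5 next at 5.99, and the other 6 tumors lay within the range of the other groups. Dhx58, which codes for LGP2, a RIG-I relative without its signalling domain, read 5.76 on the treated metastasis, 5.63, 5.35, 5.43 and 5.52 on metastases 1, 2, 3 and 4, and 5.36, 5.48 and 5.42 in treated bladders 1, 2 and 3. Dhx58 values of the 7 bladder tumors ran from 5.38 (tumor 3) through a median of 5.53 to 5.89 (tumor 6), and control bladders 1, 2, 4, 5 and 6 gave 5.35, 5.22, 5.56, 5.31 and 5.62. Dhx58 averaged 5.48 ± 0.12 in metastasis, 5.42 ± 0.06 in treated bladder, 5.56 ± 0.17 in bladder tumor and 5.41 ± 0.17 in control bladder. Its 3 treated bladders lay close together, and tumor 6 was again the highest array. Ifih1, which codes for MDA5, a sensor of long double-stranded RNA, averaged 6.24 ± 0.29 in metastasis, 6.04 ± 0.48 in treated bladder, 6.14 ± 0.29 in bladder tumor and 6.02 ± 0.15 in control bladder, with 6.34 on the treated metastasis. Its highest array was metastasis 1 at 6.65, with tumor 6 at 6.61 and treated bladder 2 at 6.60, and no sensor differed between any groups by the test across all genes.

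The signalling factors and regulators carry or restrain the response. Their class mean was 5.89 on the treated metastasis, 5.97 ± 0.19 in metastasis, 5.99 ± 0.43 in treated bladder, 5.99 ± 0.27 in bladder tumor and 5.93 ± 0.10 in control bladder. Stat2, a subunit of the ISRE-binding complex, read 6.13 on the treated metastasis, 6.82, 6.11, 6.00 and 6.42 on metastases 1, 2, 3 and 4, and 5.85, 6.93 and 5.95 in treated bladders 1, 2 and 3. Stat2 values of the 7 bladder tumors ran from 5.86 (tumor 5) through a median of 5.98 to 7.02 (tumor 6), and control bladders 1, 2, 4, 5 and 6 gave 5.87, 5.91, 6.26, 6.20 and 6.39. Stat2 averaged 6.34 ± 0.37 in metastasis, 6.24 ± 0.60 in treated bladder, 6.17 ± 0.42 in bladder tumor and 6.12 ± 0.22 in control bladder. Tumor 6, treated bladder 2 and metastasis 1 were the 3 arrays above 6.50, 1 in each replicated group except control bladder. Irf7, the factor that amplifies transcription of type I interferon genes, read 5.47 on the treated metastasis, 5.68, 5.43, 5.80 and 5.59 on metastases 1, 2, 3 and 4, and 5.42, 6.36 and 5.54 in treated bladders 1, 2 and 3. Irf7 values of the 7 bladder tumors ran from 5.32 (tumor 5) through a median of 5.86 to 6.42 (tumor 6), and control bladders 1, 2, 4, 5 and 6 gave 5.37, 5.36, 5.60, 5.62 and 5.66. Irf7 averaged 5.63 ± 0.16 in metastasis, 5.77 ± 0.51 in treated bladder, 5.78 ± 0.38 in bladder tumor and 5.52 ± 0.15 in control bladder. Here metastasis 1 was not the highest of its group, and tumor 6 and treated bladder 2 alone exceeded 6.00. Usp18, a protease that removes ISG15 and dampens the type I receptor, read 5.09 on the treated metastasis, 5.30, 4.73, 5.39 and 5.43 on metastases 1, 2, 3 and 4, and 5.21, 6.35 and 5.06 in treated bladders 1, 2 and 3. Usp18 values of the 7 bladder tumors ran from 5.27 (tumor 1) through a median of 5.33 to 6.52 (tumor 6), and control bladders 1, 2, 4, 5 and 6 gave 5.57, 5.43, 5.21, 5.38 and 5.52. Usp18 averaged 5.21 ± 0.33 in metastasis, 5.54 ± 0.70 in treated bladder, 5.52 ± 0.45 in bladder tumor and 5.42 ± 0.14 in control bladder. These Usp18 values show 2 high arrays, again tumor 6 and treated bladder 2, with metastasis 2 the lowest of all 20.

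Irf9, the DNA-binding subunit of that complex, averaged 5.75 ± 0.15 in metastasis, 5.81 ± 0.19 in treated bladder, 5.84 ± 0.18 in bladder tumor and 5.76 ± 0.04 in control bladder, with 5.79 on the treated metastasis. Irf1, a factor induced chiefly by type II interferon, averaged 5.90 ± 0.23 in metastasis, 5.82 ± 0.27 in treated bladder, 5.92 ± 0.27 in bladder tumor and 5.87 ± 0.14 in control bladder, with 6.09 on the treated metastasis. Trim25, a ubiquitin ligase that activates RIG-I, averaged 6.82 ± 0.30 in metastasis, 6.65 ± 0.54 in treated bladder, 6.65 ± 0.42 in bladder tumor and 6.58 ± 0.16 in control bladder, with 6.50 on the treated metastasis. Trim25 followed the pattern of Stat2, with 7.46 in tumor 6, 7.27 in treated bladder 2 and 7.26 in metastasis 1. Parp9, a partner in ADP-ribosylation that promotes interferon signalling, averaged 5.57 ± 0.12 in metastasis, 5.57 ± 0.29 in treated bladder, 5.55 ± 0.27 in bladder tumor and 5.53 ± 0.14 in control bladder, with 5.49 on the treated metastasis. Parp14, an ADP-ribosyltransferase of the same response, averaged 6.54 ± 0.31 in metastasis, 6.53 ± 0.37 in treated bladder, 6.48 ± 0.26 in bladder tumor and 6.59 ± 0.12 in control bladder, with 6.58 on the treated metastasis. Both had their highest values in the arrays already named, 5.96 in tumor 6 for Parp9 and 6.92 in treated bladder 2 for Parp14.

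The effectors act on viral RNA and particles. Their class mean was 5.92 on the treated metastasis, 5.69 ± 0.23 in metastasis, 5.71 ± 0.41 in treated bladder, 5.83 ± 0.30 in bladder tumor and 5.66 ± 0.13 in control bladder. Oas1a, an oligoadenylate synthetase that activates RNase L, read 6.55 on the treated metastasis, 7.06, 5.92, 6.10 and 5.99 on metastases 1, 2, 3 and 4, and 5.62, 7.31 and 5.74 in treated bladders 1, 2 and 3. Oas1a values of the 7 bladder tumors ran from 5.68 (tumor 7) through a median of 6.44 to 7.95 (tumor 6), and control bladders 1, 2, 4, 5 and 6 gave 5.35, 5.42, 6.10, 6.14 and 6.00. This gene, whose promoter carries the tandem ISRE core shown above, had its 5 highest values in tumor 6, treated bladder 2, metastasis 1, tumor 2 and tumor 5. Controls did not exceed 6.14, but tumor 7 at 5.68, 2 treated bladders and metastases 2, 3 and 4 fell inside their range. Oas2, a larger synthetase of the same family, read 6.12 on the treated metastasis, 6.51, 5.16, 5.90 and 5.81 on metastases 1, 2, 3 and 4, and 4.91, 7.25 and 5.72 in treated bladders 1, 2 and 3. Oas2 values of the 7 bladder tumors ran from 5.43 (tumor 7) through a median of 6.20 to 7.82 (tumor 6), and control bladders 1, 2, 4, 5 and 6 gave 5.16, 5.36, 6.03, 5.66 and 6.11. Oas2 averaged 5.84 ± 0.55 in metastasis, 5.96 ± 1.19 in treated bladder, 6.32 ± 0.75 in bladder tumor and 5.66 ± 0.41 in control bladder. Oas2 spanned 2.91 on the log2 scale from treated bladder 1 to tumor 6, the widest span of any member, and its lowest array and its next to highest were both treated bladders. Rtp4, a receptor-transporter protein induced by interferon, read 5.34 on the treated metastasis, 5.67, 4.93, 5.08 and 5.94 on metastases 1, 2, 3 and 4, and 5.32, 6.33 and 5.46 in treated bladders 1, 2 and 3. Rtp4 values of the 7 bladder tumors ran from 5.45 (tumor 7) through a median of 5.81 to 6.14 (tumor 1), and control bladders 1, 2, 4, 5 and 6 gave 5.43, 5.10, 5.51, 4.98 and 5.36. All 7 tumors read 5.45 or more, as did 1 of the 5 control bladders. Oasl1, an OAS-like protein that limits translation of Irf7 in mice, read 5.34 on the treated metastasis, 5.22, 5.43, 5.29 and 5.11 on metastases 1, 2, 3 and 4, and 5.25, 5.40 and 5.19 in treated bladders 1, 2 and 3. Oasl1 values of the 7 bladder tumors ran from 5.24 (tumor 7) through a median of 5.35 to 5.56 (tumor 2), and control bladders 1, 2, 4, 5 and 6 gave 5.03, 5.19, 5.24, 5.14 and 5.30. Oasl1 was the effector whose spread was smallest, and tumor 6 at 5.27 was not among its high tumors.

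For the remaining 11 effectors the replicated groups overlapped in every comparison of all arrays. Without the near-mean arrays Ifit3 was lower in metastasis, in treated bladder and in bladder tumor than in the 2 remaining controls. In the same arrays Bst2 was higher in metastasis and in treated bladder than in control, and Ifi35 lower in metastasis than in tumor and in control. Isg15, Ifit2 and Oasl2 were also higher and Rsad2 lower in metastasis than in control, and Oas3 higher in treated bladder than in control. Isg15 and Oas3 averaged 4.72 and 4.80 in those controls. Both lie below 4.84, the median of the mean values of 1577 receptor genes of smell and taste, and cannot be told from background. Ifit3 was higher in treated bladder than in tumor. Over all genes, 22.5% were higher and 25% lower without overlap in metastasis against control. The shares against control were 9.98% and 7.59% in treated bladder, and 7.79% and 4.58% in tumor. Those against tumor were 4.77% and 7.73% in metastasis, and 0.372% and 0.182% in treated bladder. Isg15, the ubiquitin-like modifier, averaged 4.98 ± 0.29 in metastasis, 5.00 ± 0.36 in treated bladder, 5.04 ± 0.27 in bladder tumor and 5.00 ± 0.27 in control bladder, with 5.18 on the treated metastasis. Ifit1, which binds viral RNA that lacks a host cap, averaged 5.50 ± 0.38 in metastasis, 5.71 ± 0.86 in treated bladder, 5.75 ± 0.64 in bladder tumor and 5.80 ± 0.48 in control bladder, with 6.03 on the treated metastasis. Ifit2, a relative of Ifit1, averaged 6.02 ± 0.29 in metastasis, 5.76 ± 0.33 in treated bladder, 5.84 ± 0.31 in bladder tumor and 5.84 ± 0.25 in control bladder, with 6.23 on the treated metastasis. Ifit1 was wide within groups, from 5.18 to 6.71 among the 3 treated bladders. Ifit3, another protein of the same family, averaged 6.10 ± 0.16 in metastasis, 6.23 ± 0.10 in treated bladder, 6.10 ± 0.13 in bladder tumor and 6.27 ± 0.23 in control bladder, with 5.97 on the treated metastasis. Ifit3 moved apart from the others, with its highest value in control bladder 1 (6.56) and 5.98 in tumor 6. Oas3, the third oligoadenylate synthetase, averaged 4.98 ± 0.12 in metastasis, 5.01 ± 0.17 in treated bladder, 5.03 ± 0.18 in bladder tumor and 4.90 ± 0.12 in control bladder, with 4.91 on the treated metastasis. Oasl2, an OAS-like protein with ubiquitin-like domains, averaged 5.72 ± 0.27 in metastasis, 5.65 ± 0.39 in treated bladder, 5.87 ± 0.32 in bladder tumor and 5.66 ± 0.21 in control bladder, with 6.24 on the treated metastasis. Oas3 stayed between 4.76 and 5.30 on all arrays, and Oasl2 read 6.48 in tumor 6, 6.11 in metastasis 1 and 6.10 in treated bladder 2.

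Rsad2, which codes for viperin, an enzyme that makes a chain-terminating nucleotide, averaged 5.27 ± 0.24 in metastasis, 5.26 ± 0.42 in treated bladder, 5.49 ± 0.43 in bladder tumor and 5.53 ± 0.08 in control bladder, with 6.13 on the treated metastasis. Cmpk2, the mitochondrial nucleotide kinase encoded beside Rsad2, averaged 5.15 ± 0.17 in metastasis, 5.24 ± 0.22 in treated bladder, 5.37 ± 0.32 in bladder tumor and 5.06 ± 0.22 in control bladder, with 5.11 on the treated metastasis. Rsad2 was as high on the treated metastasis as in tumor 6, both at 6.13, the highest values of that gene. Bst2, which codes for tetherin, a membrane protein that holds budding viruses, averaged 6.86 ± 0.65 in metastasis, 6.68 ± 0.08 in treated bladder, 6.79 ± 0.42 in bladder tumor and 6.77 ± 0.36 in control bladder, with 7.26 on the treated metastasis. Xaf1, a pro-apoptotic partner of XIAP, averaged 6.36 ± 0.57 in metastasis, 6.05 ± 0.76 in treated bladder, 6.15 ± 0.59 in bladder tumor and 6.24 ± 0.39 in control bladder, with 6.68 on the treated metastasis. Ifi35, a leucine-zipper protein induced by interferon, averaged 5.67 ± 0.14 in metastasis, 5.86 ± 0.21 in treated bladder, 5.86 ± 0.19 in bladder tumor and 5.92 ± 0.11 in control bladder, with 5.78 on the treated metastasis. Bst2 was high in metastases 1 and 2 (7.50 and 7.32) and in tumor 6 (7.51), and low in metastases 3 and 4 (6.44 and 6.19). Xaf1 read 7.43 in tumor 6, 7.04 in metastasis 1 and 6.93 in treated bladder 2.

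The GTPases comprise the Mx proteins, which bind viral nucleoproteins, and the guanylate-binding and immunity-related GTPases, which attack the vacuoles of intracellular pathogens and respond strongly to type II interferon. Their class mean was 5.85 on the treated metastasis, 5.71 ± 0.26 in metastasis, 5.72 ± 0.26 in treated bladder, 5.80 ± 0.22 in bladder tumor and 5.69 ± 0.10 in control bladder. Igtp, which codes for the immunity-related GTPase Irgm3, read 6.44 on the treated metastasis, 6.41, 5.34, 5.84 and 6.28 on metastases 1, 2, 3 and 4, and 5.56, 6.39 and 5.63 in treated bladders 1, 2 and 3. Igtp values of the 7 bladder tumors ran from 5.81 (tumor 4) through a median of 6.11 to 6.96 (tumor 6), and control bladders 1, 2, 4, 5 and 6 gave 6.07, 5.57, 5.47, 6.04 and 5.81. Igtp averaged 5.97 ± 0.48 in metastasis, 5.86 ± 0.46 in treated bladder, 6.16 ± 0.42 in bladder tumor and 5.79 ± 0.27 in control bladder. Metastasis 4, a near-mean array, was high for Igtp at 6.28, as was tumor 3 at 6.37, so its high values were less tied to the arrays named above. Irgm1, a regulator of the same GTPases, with the tandem ISRE core, read 6.06 on the treated metastasis, 6.21, 5.48, 5.50 and 5.56 on metastases 1, 2, 3 and 4, and 5.25, 6.19 and 5.60 in treated bladders 1, 2 and 3. Irgm1 values of the 7 bladder tumors ran from 5.44 (tumor 5) through a median of 5.78 to 6.56 (tumor 6), and control bladders 1, 2, 4, 5 and 6 gave 5.54, 5.65, 5.61, 6.48 and 5.58. Irgm1 averaged 5.69 ± 0.35 in metastasis, 5.68 ± 0.47 in treated bladder, 5.84 ± 0.36 in bladder tumor and 5.77 ± 0.40 in control bladder. Control bladder 5 read 6.48 for Irgm1, above every array but tumor 6, and groups overlapped. Mx1, an antiviral GTPase whose gene is defective in many laboratory strains of mice, read 5.26 on the treated metastasis, 5.61, 5.28, 5.27 and 5.42 on metastases 1, 2, 3 and 4, and 5.42, 5.87 and 5.49 in treated bladders 1, 2 and 3. Mx1 values of the 7 bladder tumors ran from 5.18 (tumor 7) through a median of 5.56 to 5.91 (tumor 6), and control bladders 1, 2, 4, 5 and 6 gave 5.26, 5.18, 5.45, 5.38 and 5.73. Mx1 averaged 5.39 ± 0.16 in metastasis, 5.59 ± 0.24 in treated bladder, 5.53 ± 0.23 in bladder tumor and 5.40 ± 0.21 in control bladder. Mx1 values stayed between 5.18 and 5.91 on all arrays, with tumor 6 and treated bladder 2 at the top.

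Mx2, the nearby paralog of Mx1, averaged 5.75 ± 0.14 in metastasis, 5.89 ± 0.17 in treated bladder, 5.86 ± 0.26 in bladder tumor and 5.74 ± 0.15 in control bladder, with 5.60 on the treated metastasis. Gbp2, a guanylate-binding protein, averaged 5.73 ± 0.46 in metastasis, 5.56 ± 0.13 in treated bladder, 5.63 ± 0.18 in bladder tumor and 5.61 ± 0.06 in control bladder, with 5.87 on the treated metastasis. Gbp3, another member of that family, averaged 5.72 ± 0.18 in metastasis, 5.78 ± 0.20 in treated bladder, 5.75 ± 0.16 in bladder tumor and 5.84 ± 0.11 in control bladder, with 5.87 on the treated metastasis. Gbp2 had its highest and its lowest value of all 20 arrays in the same group, 6.26 in metastasis 1 and 5.24 in metastasis 2. Several members have close paralogs (the Oas, Ifit, Mx, Gbp and immunity-related GTPase families), and probes on an array can take up transcripts of a near-identical copy, so the identity of the transcript behind such a value is less certain.

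**Figure D3:**
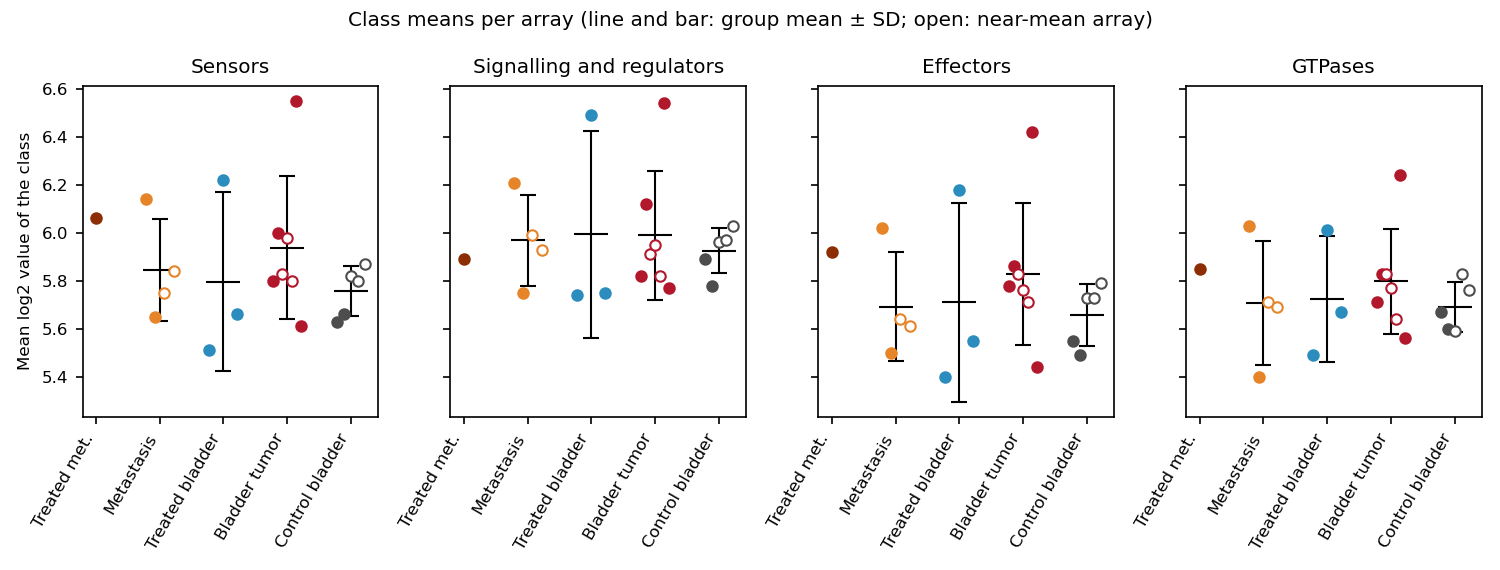
Mean log2 value of the members of each role on each array, by group, with bars for the group mean ± SD and open points for near-mean arrays. In all 4 roles the treated bladders split into 1 high and 2 low arrays, and 1 tumor (tumor 6) lies above the other 6.

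Across the 12 arrays outside the near-mean set, the members moved together. The median correlation over the 528 pairs of members was 0.64, and 493 pairs had one above 0. Without the 2 arrays whose member mean lay farthest from its median, that median was 0.46 over the remaining 10, with 459 pairs above 0, and across the 8 near-mean arrays it was 0.04. The mean of the members spanned 0.92 over the 12 arrays and 0.12 over the 8. These arrays share normalization and differ in tissue make-up, which every gene on them shares, so the values describe these arrays. With the mean of the other members, 24 of the 33 (72.7%) correlated above 0.7 over the 12 arrays, against 4.05% of the 30109 other genes with the mean of all members, and 8 (24.2%) above 0.9, against 0.139%.

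The tightest members were Oas2 (r = 0.96), Zbp1 (0.95), Oas1a (0.95), Ifit1 (0.94), Stat2 (0.92), Ddx58 (0.92), Oasl2 (0.92) and Igtp (0.91), which cover all 4 roles. The loosest were Ifit3 at -0.31 and Oasl1 at 0.26, followed by Ifi35 at 0.48, Bst2 at 0.53 and Mx2 at 0.54. Ifit1 and Ifit3 both carry spaced ISRE cores in their promoter windows and sit near each other on chromosome 19, yet Ifit1 read 6.98 in tumor 6 and 5.46 in control bladder 1, where Ifit3 read 5.98 and 6.56. Control bladder 1 was the highest array of Ifit3, which varied little. Its SD was 0.19 over the 12 arrays and 0.17 over the 8, against 0.61 and 0.46 for Ifit1, and its rho with the other members was -0.09. Why the 2 genes differed was not tested.

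A list of 58 further genes of the pathway, not members, was followed on the same 12 arrays. The mean of 28 other interferon-induced genes correlated with the mean of the members at r = 0.89 (Spearman rho 0.78, and r = 0.83 without the 2 arrays farthest from the median of that list). In that list, Herc6 (0.94), Trim30a (0.93), Ddx60 (0.91), Eif2ak2, which codes for the RNA-activated kinase PKR (0.90), and the immunoproteasome subunit Psmb8 (0.90) followed the members most closely. The 13 transducers stood at 0.60 (rho 0.47) and the 6 receptor chains at 0.45 (rho 0.39). The mean of the 8 ligand genes stood at -0.65 (rho -0.73), with Ifnb1, which codes for interferon beta, at -0.33 and Ifng, which codes for interferon gamma, at -0.47. Background moved with these values: the mean of 1577 chemosensory receptor genes, which serve smell and taste, correlated with the mean of the members at -0.56 (rho -0.54), and the array median at -0.60 (rho -0.55). With the chemosensory mean as a covariate in the limma fit, the median member difference was 0.00 in treated bladder against bladder tumor (-0.08 without it) and 0.14 in treated bladder against control bladder (0.03 without it). It was 0.14 in bladder tumor against control bladder (0.08), -0.11 in metastasis against bladder tumor (-0.11) and 0.02 in metastasis against control bladder (0.07), and no member was called. The part of background in the ligand values was not tested.

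The marker lists of other cell types gave no common picture of the 3 high arrays. Over the 12 arrays the mean of the members correlated at 0.40 with 10 leukocyte and macrophage markers (rho 0.27), and at 0.55 with 8 neutrophil markers (rho 0.22, and r = 0.07 without the 2 farthest arrays). The values were -0.08 for 11 T and NK cell markers, -0.21 for 5 markers of plasmacytoid dendritic cells, which are major producers of type I interferon, and -0.51 for 9 urothelium markers. The leukocyte and macrophage mean was 8.61 in metastasis 1, 7.28 in tumor 6 and 6.23 in treated bladder 2. The neutrophil mean was 6.19 in metastasis 1, 7.61 in tumor 6 and 5.78 in treated bladder 2, and the urothelium mean 5.33, 5.57 and 8.22 on those arrays. The part of these cells in the member values was not tested.

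**Figure D4:**
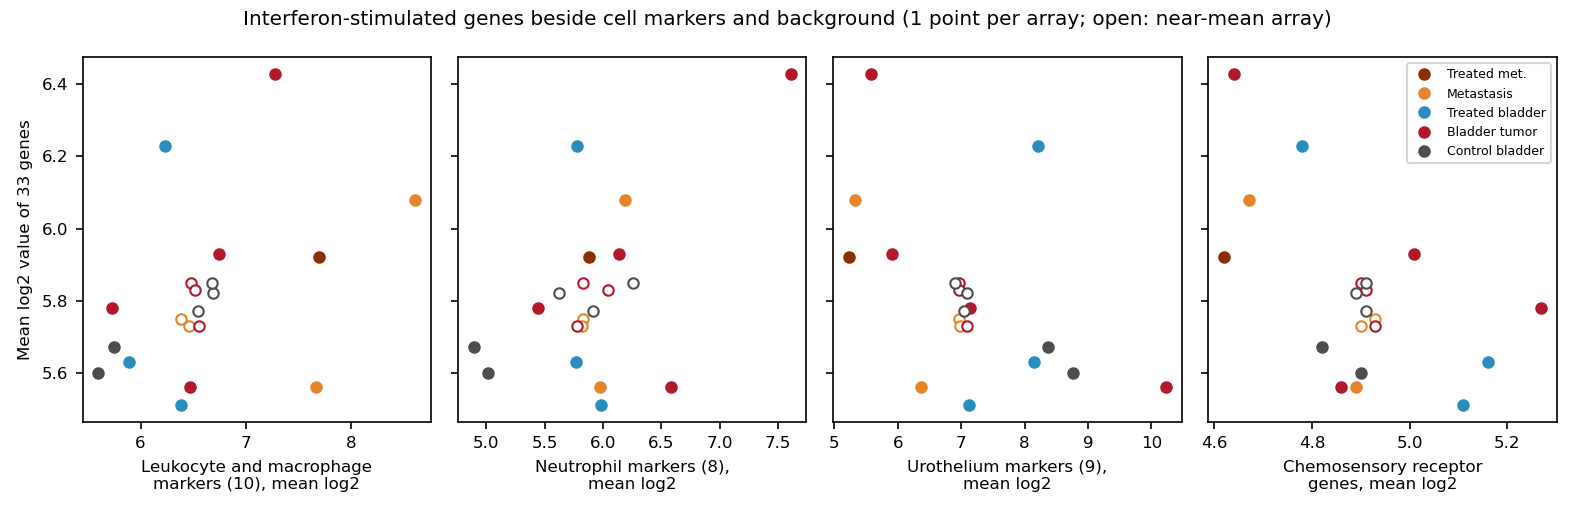
Mean log2 value of the 33 members on each array against the mean of leukocyte and macrophage markers, neutrophil markers, urothelium markers and chemosensory receptor genes (1 point per array, open for near-mean arrays). The 3 arrays with the highest member means, at 6.43, 6.23 and 6.08, are tumor 6, treated bladder 2 and metastasis 1. They lie toward the low end of the chemosensory genes (4.64, 4.78 and 4.67). Tumor 6 and metastasis 1 read low for urothelium markers (5.57 and 5.33) and were the highest of their groups for leukocyte and macrophage markers (7.28 and 8.61). Treated bladder 2 read 8.22 and 6.23 for these 2 lists.

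Bladder tumor was set against control bladder to ask whether tumors carry more of the interferon program. No member passed limma's test at an adjusted p of 0.05, nor did any of the 30142 genes (0% called), although 700 genes were higher at an unadjusted p under 0.05. Of the 33 members, 25 had a higher mean in tumor, with a median difference of 0.08, against 53.0% of all genes and a median of 0.01. By role these were 4 of 4 sensors, 7 of 8 signalling factors and regulators, 9 of 15 effectors and 5 of 6 GTPases. At an unadjusted p under 0.05, 3 members were higher and 0 lower, against 2.32% and 1.96% of all genes. These 3 were effectors, and each had an adjusted p of 0.999 in limma's test. Rtp4 averaged 5.40 ± 0.48 in metastasis, 5.70 ± 0.54 in treated bladder, 5.80 ± 0.25 in bladder tumor and 5.27 ± 0.23 in control bladder. Its difference, tumor minus control, was 0.53 (SE 0.20, 95% interval 0.12 to 0.94). Oas1a averaged 6.27 ± 0.53 in metastasis, 6.22 ± 0.94 in treated bladder, 6.64 ± 0.72 in bladder tumor and 5.80 ± 0.39 in control bladder. That difference was 0.84 (SE 0.35, 95% interval 0.10 to 1.58). Oasl1 averaged 5.26 ± 0.13 in metastasis, 5.28 ± 0.11 in treated bladder, 5.40 ± 0.13 in bladder tumor and 5.18 ± 0.10 in control bladder. It differed by 0.22 (SE 0.08, 95% interval 0.04 to 0.40). The ranges of tumor and control overlapped for all 33 members when every array was used, against 0.106% of all genes with every tumor higher and 0.073% with every tumor lower. Without tumor 6 the median difference was -0.00, and without tumor 7 it was 0.13.

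For the other 30 members the interval of the difference included 0. Oas2 differed by 0.66 (SE 0.39, 95% interval -0.16 to 1.47), Igtp by 0.37 (SE 0.22, 95% interval -0.10 to 0.84) and Zbp1 by 0.32 (SE 0.22, 95% interval -0.15 to 0.78). Without the near-mean arrays, 29 of the 33 members were higher in tumor and the median difference was 0.26, against 61.1% of all genes higher and a median of 0.06, over 4 tumors and the 2 controls with high Xist. In that fit too no member was called, 0.00332% of all genes were, and Oas1a averaged 6.72 in tumor and 5.38 in control. At an unadjusted p under 0.05 it had 0 members higher, with Rtp4, Oas1a and Oasl1 no longer among them, and 1 lower, Ifit3 (6.05 in tumor and 6.46 in control, adjusted p = 0.987 in limma's test), against 1.71% and 2.14% of all genes. The groups of these arrays did not overlap for 6 members higher in tumor (Dhx58, Zbp1, Oas1a, Oas2, Oasl1 and Rtp4) and for Ifit3, lower in tumor, against 7.79% and 4.58% of all genes. Among the near-mean arrays alone, 16 of 33 members were higher and the median was -0.00, against 45.1% of all genes higher and a median of -0.02. Leukocyte and macrophage and neutrophil markers were higher in the tumor mean for 10 of 10 and 8 of 8 genes (median differences 0.26 and 0.25), and urothelium markers lower for 9 of 9 (-0.36). Smooth muscle markers were lower in tumor for 6 of 6 (-1.05) and endothelium markers for 4 of 5 (-0.12). None of these passed the adjusted test, and their part in the member values was not tested.

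Treated bladder was set against bladder tumor to see whether CM272 with cisplatin left more or less of the program. Again no member and no gene was called (0% called). At an unadjusted p under 0.05 there were 0 members higher and 0 lower, against 0.425% and 0.063% of all genes. The means of 10 members were higher in treated bladder and those of 23 lower, with a median difference of -0.08, against 49.4% of all genes higher and a median of -0.00. By role 0 of 4 sensors, 5 of 8 signalling factors and regulators, 2 of 15 effectors and 3 of 6 GTPases were higher. Oas1a differed by -0.42 (SE 0.42, 95% interval -1.29 to 0.46), treated minus tumor, and Oas2 by -0.36 (SE 0.46, 95% interval -1.32 to 0.60). Stat2 differed by 0.07 (SE 0.26, 95% interval -0.47 to 0.62) and Usp18 by 0.01 (SE 0.27, 95% interval -0.56 to 0.58). The intervals for Oas1a and Oas2 hold both no difference and a level more than 2-fold lower in treated bladder. The sign depends on single arrays, since the median difference was -0.26 without treated bladder 2 and 0.09 without treated bladder 1, and the chemosensory covariate took it to 0.00. All members overlapped between the groups, against 0.133% of all genes with every treated bladder higher and 0.0332% with every one lower. Without the near-mean arrays 3 members were higher, with a median of -0.09, against 44.3% of all genes. In that fit 0% of genes were called, and 0 members had an unadjusted p under 0.05 in either direction, against 0.302% and 0.0697% of all genes. Ifit3 was the 1 member whose groups then did not overlap, higher in treated bladder, against 0.372% of all genes higher and 0.182% lower. Urothelium markers were higher in the treated mean for 9 of 9 genes (median difference 0.69) and smooth muscle markers for 6 of 6 (0.70), with leukocyte and macrophage markers lower for 10 of 10 (-0.31) and neutrophil markers for 8 of 8 (-0.09), and their part in the member values was not tested.

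Treated bladder against control bladder, which shares its treated arrays with the comparison above, gave 0 called members and 0% of all genes called. Of the members, 18 were higher in treated bladder and 15 lower, with a median difference of 0.03, against 52.8% of all genes higher and a median of 0.01. None had an unadjusted p under 0.05, against 0.581% of all genes higher and 0.182% lower. Rtp4 differed by 0.43 (SE 0.24, 95% interval -0.09 to 0.94), Oas1a by 0.42 (SE 0.44, 95% interval -0.50 to 1.35) and Irf7 by 0.25 (SE 0.23, 95% interval -0.22 to 0.73). The median was -0.16 without treated bladder 2, 0.12 without treated bladder 1 and 0.14 with the chemosensory covariate. All members overlapped between the groups, against 0.717% of all genes higher and 0.478% lower without overlap. Without the near-mean arrays, which leaves 3 treated bladders and 2 controls, 26 members were higher, with a median of 0.13, against 60.2% of all genes. There 0.00332% of genes and no member were called, and 0 members had an unadjusted p under 0.05, against 0.584% of all genes higher and 0.863% lower. In those arrays 8 members did not overlap and were higher in treated bladder (Dhx58, Irf7, Oas1a, Oas3, Oasl1, Bst2, Mx1 and Mx2), against 9.98% of all genes, and Ifit3 was lower, against 7.59%. The control mean of Oas3 there, 4.80, lies below the 4.84 of the chemosensory genes and cannot be told from background.

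**Figure D5:**
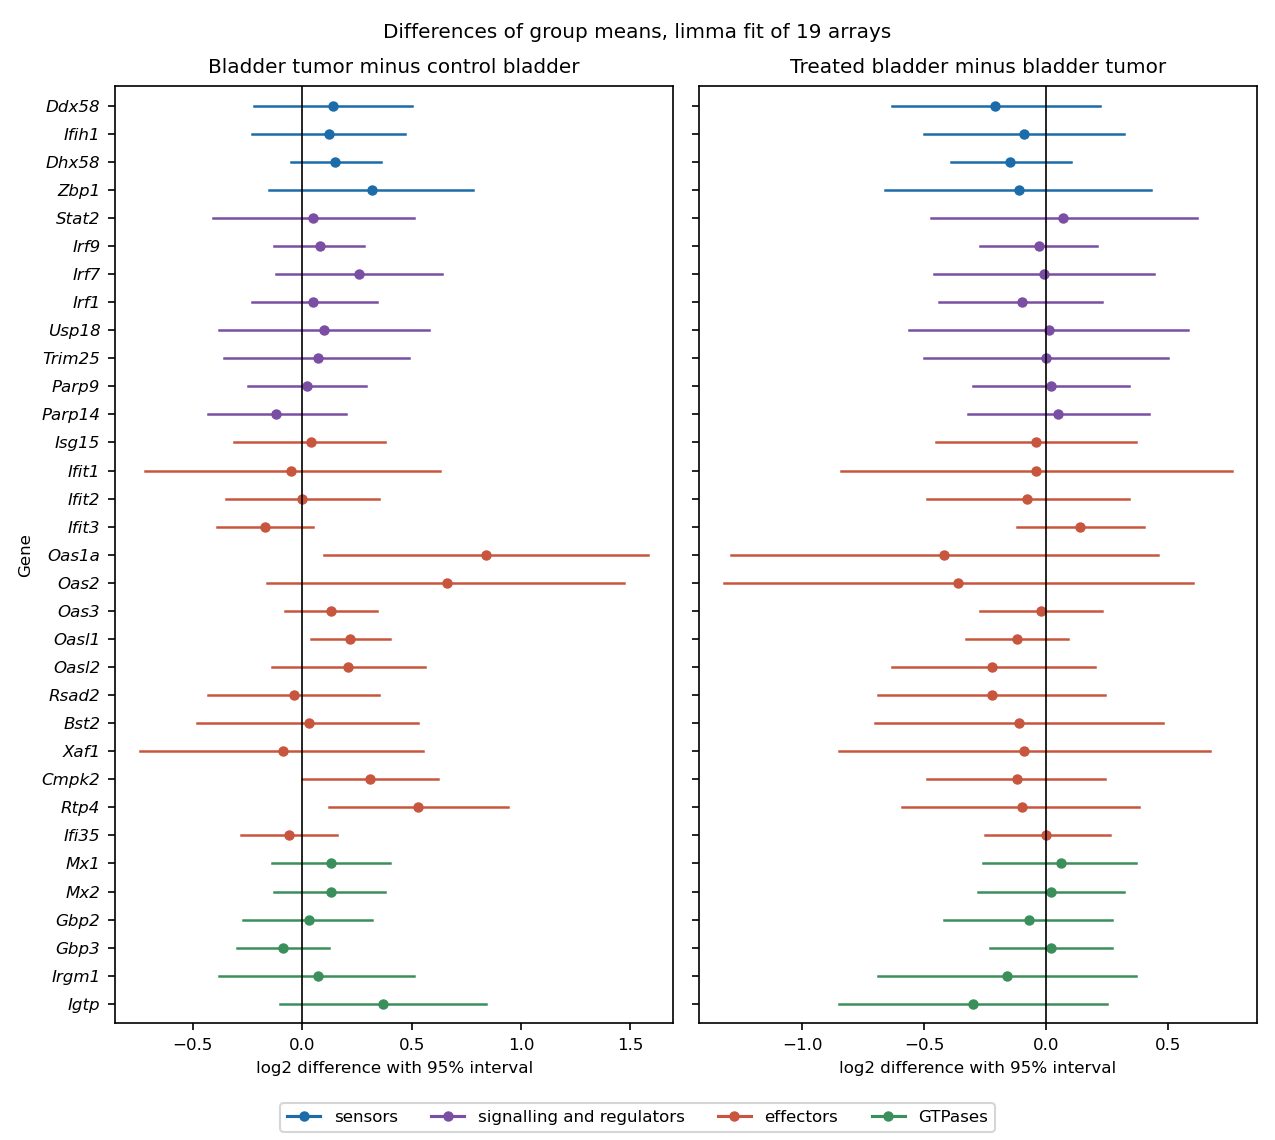
Differences of group means (points) with 95% intervals (lines) from the limma fit for each member, coloured by role, for bladder tumor minus control bladder and treated bladder minus bladder tumor, on the log2 scale. In the left panel 25 of 33 points lie above 0 and in the right panel 10 of 33, and the intervals that exclude 0 are those of Rtp4, Oas1a and Oasl1 in the left panel.

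Metastasis was set against bladder tumor and against control bladder, which share the metastasis arrays. No member and no gene was called in either (0% called in both). Against tumor, 10 members were higher and 23 lower, with a median of -0.11, against 43.8% of all genes higher and a median of -0.03. Against control, 21 were higher and 12 lower, with a median of 0.07, against 47.1% of all genes higher and a median of -0.01. At an unadjusted p under 0.05 there were 0 members in either direction in both, against 2.51% higher and 3.49% lower of all genes against tumor, and 3.13% and 3.99% against control. Rtp4 had the smallest p against tumor, with a difference of -0.40 (SE 0.21, 95% interval -0.84 to 0.04) and an adjusted p of 0.830 in limma's test. The shift against control turned to -0.06 without metastasis 1. Leukocyte and macrophage markers were higher in metastasis than in tumor for 10 of 10 genes (median difference 0.70), and neutrophil markers lower for 8 of 8 (-0.17), urothelium markers for 8 of 9 (-0.70) and smooth muscle markers for 6 of 6 (-0.76). None of these passed the adjusted test, and their part in the member values was not tested. All members overlapped in both comparisons, against 0.156% of all genes higher and 0.358% lower without overlap against tumor, and 0.995% and 1.95% against control.

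Without the near-mean arrays 9 members were higher against tumor and 26 against control, against 38.4% and 47.5% of all genes. None was called, against 0.0133% and 0.0166% of all genes. At an unadjusted p under 0.05, Bst2 was higher against tumor and 0 members lower, against 3.43% and 2.03% of all genes. Against control, Bst2 was higher and Ifit3 lower, against 4.18% and 3.26%. Ifi35 was the 1 member without overlap against tumor, and it was lower, against 7.73% of all genes lower and 4.77% higher. Against control, with 2 arrays in each group, 12 members did not overlap and were higher and 4 lower, against 22.5% and 25% of all genes. In that fit Bst2 averaged 7.41 in metastasis, 6.77 in tumor and 6.41 in control, over 2, 4 and 2 arrays, with an adjusted p of 0.536 against control in limma's test.

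No other gene of the pathway passed the adjusted test in metastasis. Of the 58 pathway genes, 6 were higher and 1 lower against control at an unadjusted p under 0.05, beside 3.13% and 3.99% of all genes, and 2 were higher and 2 lower against tumor, beside 2.51% and 3.49%. Tlr7, the endosomal sensor of single-stranded RNA found in macrophages and dendritic cells, read 8.98 on the treated metastasis, 8.86, 9.20, 7.28 and 7.83 on metastases 1 to 4, and 7.01, 6.50 and 6.26 in treated bladders. Its 7 bladder tumors ran from 6.05 through a median of 7.26 to 7.67, and the control bladders gave 6.19, 6.22, 6.74, 6.92 and 7.06. Metastasis and control did not overlap, with a difference of 1.67 (SE 0.36, 95% interval 0.92 to 2.41, adjusted p = 0.627 in limma's test). Leukocyte and macrophage markers were higher in the same comparison for 10 of 10 genes, with a median difference of 1.03, and their part in the Tlr7 value was not tested.

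Ifng, the gene of interferon gamma, averaged 4.26 in metastasis and 4.75 in control, a difference of -0.49 (SE 0.18, adjusted p = 0.676 in limma's test), and its 2 groups did not overlap. Cxcl10, an interferon-induced chemokine that attracts T cells, averaged 5.24 in tumor and 4.77 in control, a difference of 0.46 (SE 0.17, adjusted p = 0.999 in limma's test). Both Ifng means and the control mean of Cxcl10 lie below 4.84, the median over the chemosensory genes of their mean values. Without scanner files such low values cannot be told from background. Cxcl10 was highest in tumor 6, at 6.02, and followed the members over the 12 arrays at r = 0.85. In tumor against control, 2 pathway genes were higher and 1 lower at an unadjusted p under 0.05, against 2.32% and 1.96% of all genes, and in both comparisons of treated bladder there were 0.

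The treated metastasis is 1 array and enters no test. It lay above the range of the 4 metastases for 6 members and below it for 2, against 14.4% and 19.1% of all genes. Its median difference from the metastasis mean was 0.11 over the members, 22 of which were higher, and -0.04 over all genes. The 6 members above the range were Rsad2 (6.13, with 5.37, 4.99, 5.17 and 5.54 on metastases 1 to 4), Ifit1 (6.03), Oasl2 (6.24), Igtp (6.44), Ddx58 (6.24) and Dhx58 (5.76). Rsad2 stood 0.86 above the mean of the metastases, and the other 5 between 0.27 and 0.53. Trim25 (6.50, 0.32 below that mean) and Mx1 (5.26, 0.13 below) lay under the range. Metastasis 1 was the next highest for Ifit1, Oasl2, Igtp, Ddx58 and Dhx58, at 6.00, 6.11, 6.41, 6.06 and 5.63. The chemosensory mean of the treated metastasis was 4.62, against 4.67 to 4.93 in metastasis, and the part of background was not tested.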

How the data were processed

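RNA from 20 samples, 12 ng each, was hybridised to Affymetrix whole-transcript arrays, per the labels' protocols. Per the submitters' processing notes, the authors made the deposited log2 values in Affymetrix Expression Console by RMA, a background correction, quantile normalization and probe summary that removes differences in total RNA. No scanner files were used, so signal over background is unknown, and the number of arrays limits the precision. Values ran from 2.29 to 22.02, and 284 of 65956 rows (42 of the genes) exceeded 16 on some array. A log2 reading of a 16-bit scanner cannot exceed 16, so these rows do not match the stated log2 RMA scale, and how they arose is not known. No member exceeded 7.95.

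Rows were named through the platform annotation, with symbols updated by gene ID in RefSeq (GRCm38.p6). This gave 30142 genes, 1 row each (highest mean). limma 3.58.1 (R 4.3.3; lmFit, eBayes) was fitted to the 19 arrays of the 4 replicated groups with no covariates, with two-sided p-values adjusted by Benjamini-Hochberg over all genes in each of 5 comparisons and calls at an adjusted p under 0.05. Differences are first group minus second. Simulated data of 30142 genes had 200 changed. Of those with a log2 change of 1, the fit found 82% in bladder tumor against control bladder. It found 77% in treated bladder against bladder tumor, 63% in treated bladder against control bladder and 73% in each metastasis comparison. False calls numbered 6 to 13. These rates hold for the simulated noise. Real members moved together and some arrays were near-mean arrays, so the rates cannot be read as power for the members. Oas1a and Oas2 had SEs of 0.35 and 0.39 in bladder tumor against control bladder, so a change of 1 in them could be missed.

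All members are given with group means. In each role, values on every array are given for the 2 members with the largest SD and the 2 with the smallest p in any comparison, and of the other pathway genes the 3 with the smallest p were named with full statistics. Other pathway genes were named for their correlation after their values were seen. The members, the marker and pathway lists, the near-mean set and the tests were chosen with earlier results of these data known. The other settings were a fit of the 2 groups alone, weighted arrays, another prior, further quantile normalization, median centring, a filter on dim genes, averaged rows, the near-mean set left out, alone or as a covariate, the chemosensory mean as a covariate, the replicate number as a block and each array left out.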

Additional observations from a re-analysis of the deposited data

Results flagged for a closer look

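Single arrays stood apart from the rest of their group in 10 of the 102 sets of values tested (gap to the nearest sample over the whole range, Dixon's 95% limit). These sets came from metastasis, bladder tumor and control bladder, and treated bladder was not tested in this way. Chance gives about 1 in 20 for unrelated sets. These sets share arrays and the members move together, so their count cannot be set against that rate. The share of flagged sets over all genes was not computed. Bladder tumor 6 was the far one of 7 tumors for Ddx58 (6.88, next 5.99), Stat2 (7.02, next 6.36), Usp18 (6.52, next 5.59), Xaf1 (7.43, next 6.22) and the mean of the 33 members (6.43, next 5.93). Metastasis 1 was the far one of 4 for Oas1a (7.06, next 6.10), Irf1 (6.24, next 5.82) and Irgm1 (6.21, next 5.56). Among the 5 controls, control bladder 5 stood apart for Irgm1 (6.48, next 5.65) and control bladder 6 for Mx2 (6.00, next 5.71).

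The difference of means had opposite signs in treated bladder minus bladder tumor and in treated metastasis minus metastasis for 26 of the 33 members (78.8%), against 74.1% of all genes. For 3 of them, in addition, every treated bladder lay on the same side of the tumor mean, with the treated metastasis on the other side of the metastasis mean. This difference was not tested and rests on 1 treated metastasis. The share of all genes that meet this further condition was not computed, so the 3 are not shown to be unusual. Dhx58 differed by -0.15 in treated bladder minus bladder tumor and by 0.27 in treated metastasis minus metastasis. Bst2 differed by -0.11 and 0.40 in the same 2 contrasts, and Ifit3 by 0.14 and -0.14.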

How the results depend on the processing

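No member was called in any of the 5 comparisons under any setting tried. Median differences of the members moved by more than the SD between replicates in 3 cases, each without the near-mean arrays and 1 further array, a setting added after the data were seen. They were 0.36 for bladder tumor against control bladder without tumor 7, -0.36 for metastasis against bladder tumor without metastasis 1, and 0.40 for metastasis against control bladder without metastasis 2. In the same family of fits, metastasis against bladder tumor gave 0.06 without metastasis 2 and metastasis against control bladder -0.07 without metastasis 1. The other 420 values of these results, and 1984 of those of named members (5 moved), kept within that SD or on their side of the threshold. For the median over the members that SD was 0.24, larger than the size of every main median. A median could therefore change sign and still count as kept, so this tally does not show that the signs are stable. With 1 array left out at a time the medians ran from -0.00 to 0.13 for bladder tumor against control bladder, -0.26 to 0.09 for treated bladder against bladder tumor, -0.16 to 0.12 for treated bladder against control bladder, -0.16 to -0.04 for metastasis against bladder tumor, -0.06 to 0.10 for metastasis against control bladder and 0.05 to 0.22 for the treated metastasis beside metastasis. The replicate number as a block (replicate block) gave medians of 0.17, -0.06, 0.11, -0.11 and 0.14 in the 5 comparisons in that order, with 0 members called, and changed no call. The labels do not say that a number pairs samples, and same-numbered samples of different groups deviated with correlations of -0.51 to 0.44 across genes. The 3 treated bladders and 1 treated metastasis limit what can be read of the treatment, and low-lying genes cannot be told from background without scanner files.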
